A study of Ovis aries with 6 samples.

Results

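The authors listed 1022 autosomal differentially methylated regions (DMRs) between the fetal and the lamb stage of sheep perirenal fat. Among them, 270 lay outside every region that was listed as weakly methylated at either stage. They are the DMRs of chromosomes 1 to 26 that shared no base with any of the 4 lists of UMRs and LMRs, in the field's usual sense unmethylated and low-methylated regions, 1 list of each kind per stage. Of these, 126 came from the hyper list, out of 526 autosomal regions, and 144 from the hypo list, out of 496. The other 400 and 352 DMRs shared at least 1 base with a UMR or LMR. Most of the 270 lay within 1000 bases of one. Nothing in the lists states the direction of the comparison; hyper is taken here to mean higher in lambs, since nearly all of its regions ran that way.

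The 3 lambs, wild type and pure bred Merino, gave tissue labelled white adipose, collected some 89 days after birth according to the sample protocols, or 80 according to the series text. The 3 fetal animals, of the same genotype and breed, gave tissue labelled brown adipose on day 132 post conception, with term at 150 days. Perirenal fat is the depot around the kidney, no treatment was given, and the animals came from 3 ewes per stage, so each sample is a separate animal. The sample descriptions carry a tag, VEH in every lamb and TV in every fetal animal, that cannot be told apart from stage. Mean coverage of an autosomal CpG was between 5.22 and 8.00 reads, with the lowest and the highest both in lambs. Coverage inside the hyper DMRs was 0.984 to 1.09 times each animal's autosomal mean. Inside the hypo DMRs it was 0.880 to 0.963 times in lambs and 0.976 to 1.04 times in fetal animals, so every lamb was below every fetal animal.

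In mammalian tissue most CpGs carry a methyl group that maintenance enzymes copy at each cell division. Dense CpG clusters at promoters are usually free of it and form UMRs, while LMRs are short, CpG-poor dips often found where transcription factors bind away from promoters. Brown fat burns fuel to warm the newborn and white fat stores it. A level measured in whole tissue is an average over its cells, so a different mix of cells and a change within cells cannot be told apart here.

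The 270 DMRs were short and held few CpGs. The hyper DMRs had a median length of 150 bases (range 20 to 1019) and a median of 4 CpGs, and 44 of 126 held exactly 3 CpGs. The hypo DMRs had a median length of 183.5 bases (range 11 to 614) and a median of 4 CpGs, and 45 of 144 held exactly 3. At least 10 CpGs were found in 8 hyper and 16 hypo DMRs. DMRs at a UMR or LMR were longer, with medians of 243 bases in the hyper list and 210 bases in the hypo list, and held a median of 7 CpGs in both lists.

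They were CpG-dense stretches within CpG-poorer surroundings. Median density was 3.27 CpGs per 100 bases in hyper DMRs (quartiles 1.60 and 6.60) and 2.52 in hypo DMRs (quartiles 1.86 and 4.46), against 1.02 over the autosomes. For comparison, the median listed LMR held 1.51 CpGs per 100 bases and the median listed UMR 4.01. Counted over the DMR with 5000 bases on each side, the median fell to 1.69 for hyper and 1.62 for hypo DMRs. DMRs at a UMR or LMR had medians of 3.33 in the hyper and 3.66 in the hypo list, and 2.00 and 2.09 with 5000 bases on each side. A density measured between the first and last CpG of a region with 3 CpGs is high by construction when the region is short: hyper DMRs of over 5 CpGs per 100 bases had a median length of 44 bases, and those of at most 2 had one of 321 bases. Median differences, lamb minus fetal, were +19.2, +15.7 and +20.3 percentage points in hyper DMRs of at most 2, over 2 to 5, and over 5 CpGs per 100 bases. In hypo DMRs of the same 3 classes they were -20.6, -17.5 and -17.3 points, smaller in size with density, which was not the order in the hyper list; neither trend was tested.

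**Figure D1:**
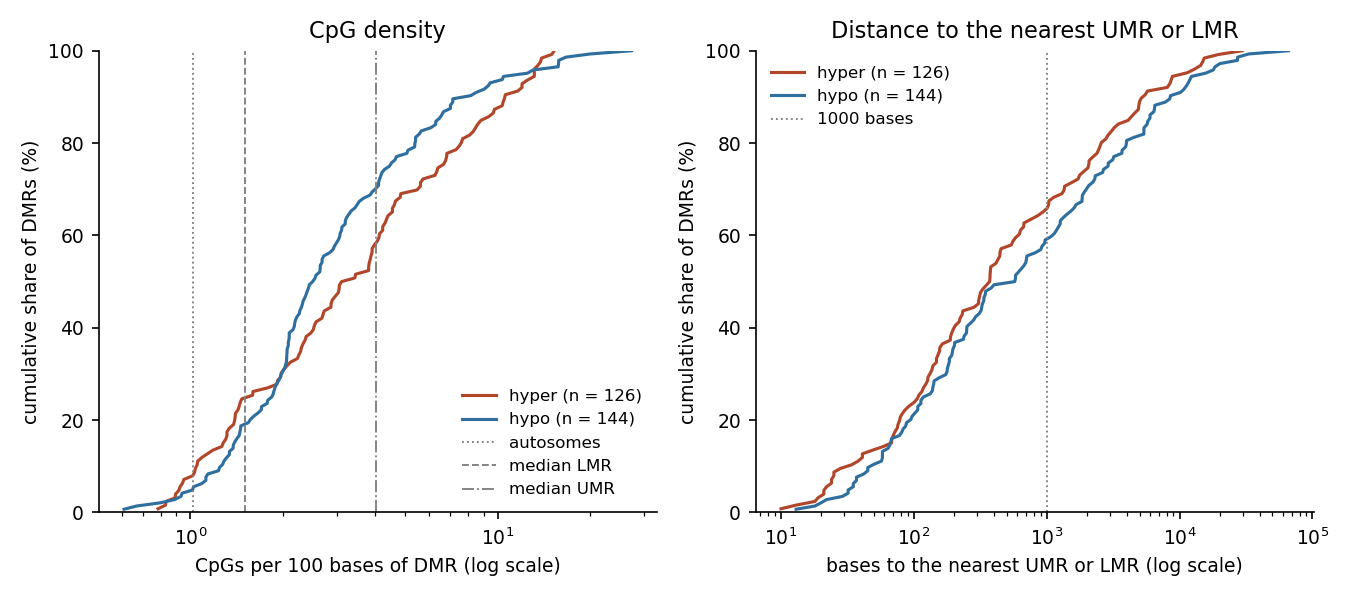
Cumulative share of the 126 hyper and 144 hypo DMRs outside UMRs and LMRs by CpG density (left, CpGs per 100 bases, log scale) and by distance to the nearest UMR or LMR (right, bases, log scale). Most densities lie above the autosomal value of 1.02, and 82 hyper and 85 hypo DMRs lie within 1000 bases of a UMR or LMR.

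A level was the methylated share of the reads summed over the CpGs that each of the 6 animals covered. A read that covers several CpGs counts once at each of them, so these sums can exceed the number of separate reads. At least 3 such CpGs and 10 reads in every animal were required of a single DMR, which 95 of 126 hyper and 110 of 144 hypo DMRs met, with medians of 33.3 and 31.3 reads per animal. Of the rest, 6 hyper and 10 hypo DMRs had fewer than 3 usable CpGs, and 25 and 24 had too few reads. Because the lists were called on these same animals, the difference within a DMR is what chose it: the values inside the DMRs are given as a description and support nothing by themselves.

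Both lists joined a highly methylated stage to an intermediate one. Pooled over 126 hyper DMRs, the level was 78.5%, 79.8% and 80.2% in lambs and 60.5%, 59.4% and 61.3% in fetal animals. Every lamb was above every fetal animal, and the means were 79.5% ± 0.90 and 60.4% ± 0.93 (SD, n = 3 each). Over the 142 hypo DMRs with a usable CpG the level was 62.0%, 60.0% and 60.1% in lambs and 80.0%, 80.3% and 79.6% in fetal animals. Here every lamb was below every fetal animal, with means of 60.7% ± 1.08 and 80.0% ± 0.36 (SD, n = 3 each). So the starting, fetal level was about 60% where lambs were higher and about 80% where lambs were lower.

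DMRs at a UMR or LMR began and ended lower, at 56.9% in lambs and 34.3% in fetal animals for the hyper list, and at 36.0% in lambs and 58.4% in fetal animals for the hypo list. Leaving out every UMR and LMR removes low levels by construction, so this gap follows from how the regions were chosen. The differences between stages were +19.1 and -19.3 points outside UMRs and LMRs, against +22.6 and -22.4 points at them.

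Few single DMRs reached a low level at either stage. Both stages were at 50% or above in 68 of 95 hyper and 87 of 110 hypo DMRs. The level of 50% lay between the stages in 26 hyper and 22 hypo DMRs, and 1 DMR of each list was below 50% at both stages. The lower stage was under 30% in 3 hyper DMRs and in no hypo DMR, against 118 of 366 and 84 of 309 DMRs at a UMR or LMR. The median hyper DMR stood at 81.0% in lambs and 60.6% in fetal animals, and the median hypo DMR at 58.0% in lambs and 80.0% in fetal animals.

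**Figure D2:**
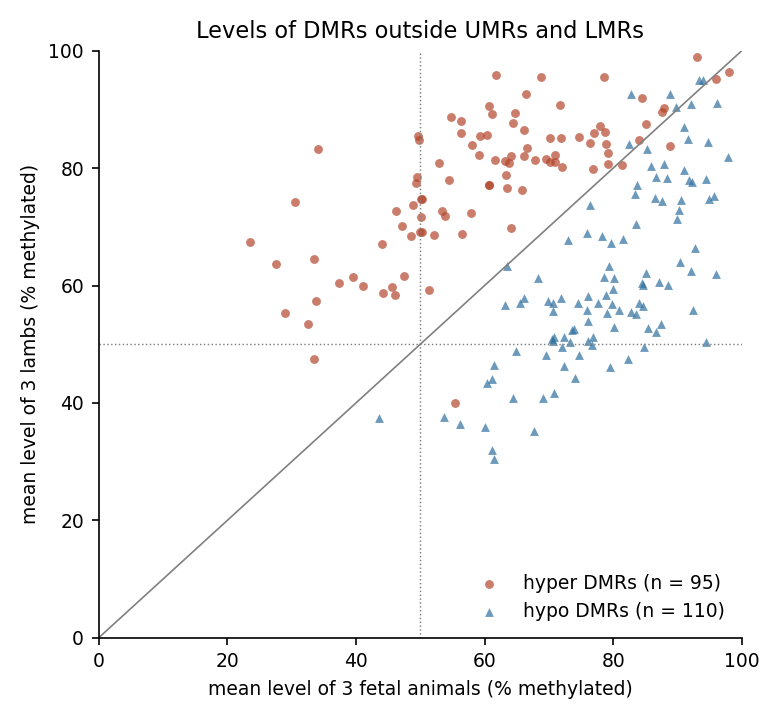
Mean level of the 3 lambs (vertical axis, % methylated) against the mean of the 3 fetal animals (horizontal axis, % methylated) for the 95 hyper and 110 hypo DMRs with enough reads; the solid line marks equal levels and dotted lines mark 50%. Hyper DMRs lie above the line and hypo DMRs below it, apart from 5 and 6 DMRs, and most of both lie where both stages exceed 50%.

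The higher stage of a DMR was often close to its surroundings, more so in the hyper than in the hypo list. Taking the CpGs 501 to 2000 bases outside as the surrounding level, whose median was 82.5% for hyper and 79.6% for hypo DMRs, the median hyper DMR was 2.87 points below it in lambs and 21.4 points below it in fetal animals. The median hypo DMR was 18.9 points below it in lambs and 0.46 points above it in fetal animals. The higher stage was within 10 points of the surrounding level in 61 of 91 hyper and 59 of 108 hypo DMRs, against 75 of 356 and 74 of 304 DMRs at a UMR or LMR. Leaving out every UMR and LMR removes low levels by construction, which shapes this comparison too. The higher stage stood over 10 points above the surroundings in 10 hyper and 25 hypo DMRs.

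Each DMR was also tested with a quasi-binomial model of methylated against unmethylated reads, with the dispersion moderated as in limma and Benjamini-Hochberg adjustment over all 880 DMRs tested. A call required an adjusted p under 0.05 together with at least 10 points between the stage means, in the direction of the list. This gave 31 of 95 hyper DMRs, where 56.4% of all tested DMRs of the hyper list were called, and 39 of 110 hypo DMRs, where 50.6% of the hypo list were. No DMR was called against its list. The levels of the stages did not overlap in 44 hyper DMRs, against 64.9% of the hyper list, and in 58 hypo DMRs, against 60.9% of the hypo list. Reads per animal were fewer than at a UMR or LMR, where the medians were 49.8 and 51.2, and the part of depth in these shares was not tested. The mean difference ran with the list in 90 of 95 hyper and 104 of 110 hypo DMRs. Among single CpGs inside them, 416 of 504 ran with the hyper list and 547 of 640 with the hypo list. Using every read, DMRs with too few included, 119 of 126 hyper and 135 of 144 hypo DMRs ran with their list.

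The difference did not stop at the listed ends. CpGs 1 to 1000 bases outside the DMRs, leaving out those in any DMR, UMR or LMR, had levels of 82.7%, 84.5% and 83.4% in lambs and 79.3%, 78.6% and 79.1% in fetal animals around hyper DMRs. All 3 lambs were above all 3 fetal animals, by 4.52 points (83.5% ± 0.92 and 79.0% ± 0.35, SD, n = 3 each; exact permutation test, two-sided, p = 0.1, the smallest that 3 against 3 allows). Around hypo DMRs the flanks were at 77.3%, 78.1% and 76.0% in lambs and 81.3%, 81.8% and 80.8% in fetal animals. All 3 lambs were below all 3 fetal animals, by 4.14 points (77.1% ± 1.11 and 81.3% ± 0.52, SD, n = 3 each; exact permutation test, two-sided, p = 0.1). The design cannot reach a p of 0.05, and the 4 such tests all had a Benjamini-Hochberg adjusted p of 0.1. These flanks adjoin regions that were listed for the same contrast in the same animals, so they are not independent of the lists.

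Flank differences were 1.94 points larger around hyper DMRs outside UMRs and LMRs (+4.52 points) than around those at them (+2.59 points). In the hypo list the values were -4.14 and -1.67 points, a gap of -2.47 points. For both lists the 3 lambs and the 3 fetal animals did not overlap in the gap between the classes (exact permutation test, two-sided, p = 0.1 each). They did overlap in the hypo list with a minimum of 5 reads per CpG, where the gap was -1.42 points (exact permutation p = 0.3). Without fetal animal 1 or 2 the hypo gap was -2.50 and -2.17 points (exact permutation p = 0.2 each). With 3 animals against 2, such a p can arise without overlap. The gap also moved with the width of the flank: it was +3.76 points in the hyper and -3.95 in the hypo list with 500 bases, and +0.61 and -1.35 points with 2000 bases. In the hyper list a minimum of 5 reads gave +1.29 points. The classes also had an unlike mix of distances, since CpGs in UMRs and LMRs were left out. CpGs at 1 to 100 bases were 179 of 2475 outside UMRs and LMRs and 351 of 8610 at them in the hyper list. In the hypo list they were 193 of 2862 and 327 of 7589. At that distance the differences were +18.1 and +14.8 points in the hyper and -15.5 and -12.9 in the hypo list. The part of this mix in the gap was not tested.

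Nearly all of the flank difference lay within 500 bases. Lamb minus fetal was +18.1 points at 1 to 100 bases from a hyper DMR, +11.7 at 101 to 250, +7.13 at 251 to 500 and +0.30 at 501 to 1000 bases. Around hypo DMRs it was -15.5, -11.3, -5.87 and -0.81 points in the same 4 distance classes. From 1001 to 10000 bases the mean differences lay between -0.52 and +0.91 points. In the class next to the hypo DMRs 1 lamb stood apart, with 58.3% in lamb 3 beside 69.6% and 68.7% in lambs 1 and 2, all below the fetal animals at 81.4%, 81.4% and 80.3%.

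Directly at the border the step was small. In the 64 hyper DMRs with a usable CpG 1 to 100 bases outside, the difference was +20.2 points inside and +18.1 points outside. In the 66 such hypo DMRs it was -18.4 points inside and -15.7 points outside. DMRs at a UMR or LMR had steps of +24.0 points inside to +15.1 outside in the hyper list, and -23.1 inside to -12.9 outside in the hypo list.

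**Figure D3:**
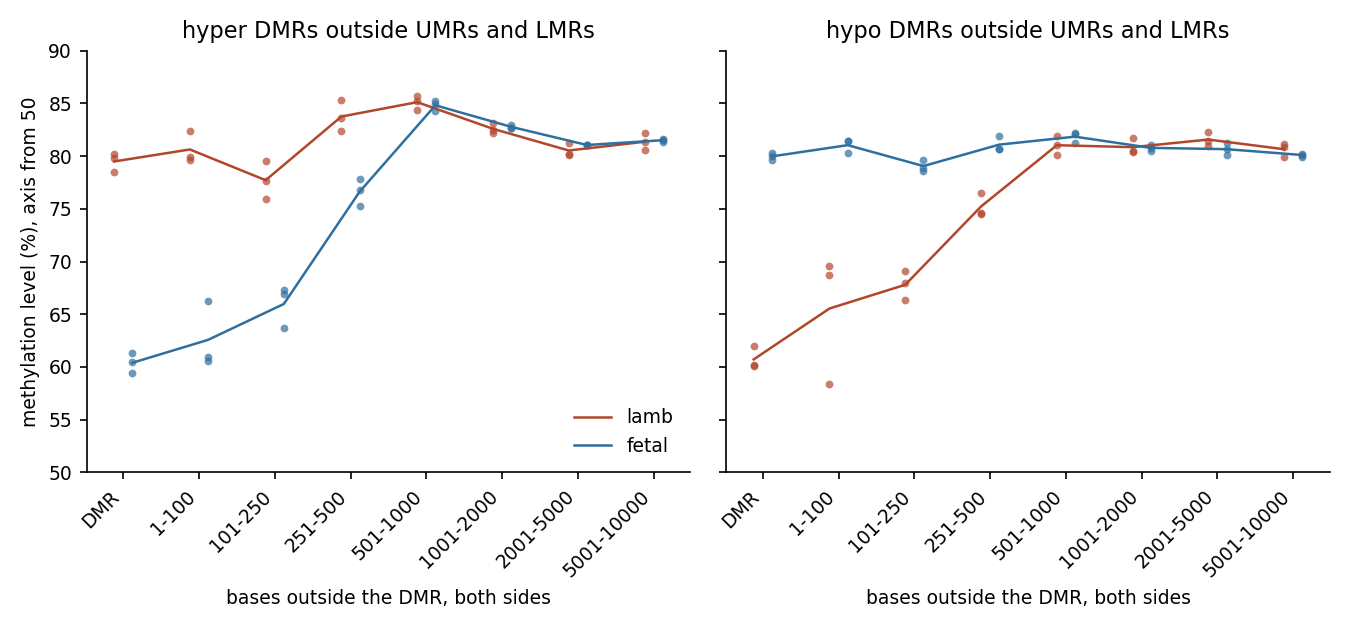
Methylation level (%, axis from 50) inside the DMRs and in 7 distance classes outside them (bases, both sides), for hyper (left) and hypo DMRs (right) outside UMRs and LMRs; points are single animals and lines join the means of 3 lambs and of 3 fetal animals. The stages meet in the class of 501 to 1000 bases and stay together out to 10000 bases.

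Single flanks were tested by the same model, with adjustment over all 877 flanks of DMRs. Of the flanks that could be tested, 6 of 104 around hyper DMRs were called, where 2.67% of all flanks of the hyper list were, and 10 of 126 around hypo DMRs, where 3.28% of the hypo list were. None was called against its list, and 90 of 104 and 105 of 126 ran with it. At an unadjusted p under 0.05 there were 27 of 104 and 43 of 126, against 59 of 346 and 34 of 301 flanks of DMRs at a UMR or LMR. Of the 16 called flanks, 3 stayed called without each animal in turn: those at chr3:58850617-58850771, chr22:47837629-47837686 and chr6:105888240-105888688. None of these 3 calls held with a minimum of 5 reads per CpG, where the differences were +11.7, +5.77 and -12.8 points (adjusted p = 0.28, 0.49 and 0.56), and the chr22 flank was also lost with a minimum of 3 reads, at +5.29 points (adjusted p = 0.26).

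The flank with the smallest adjusted p belonged to the hyper DMR at chr3:58850617-58850771. Over 56 CpGs its flank was at 83.3%, 85.0% and 79.4% in lambs and 66.5%, 69.8% and 70.1% in fetal animals, a difference of +13.7 points (adjusted p = 0.00079, limma-style moderated quasi-binomial test). The stages did not overlap in the flank. The DMR itself, of 155 bases, had 79.1%, 82.4% and 90.5% in lambs and 46.7%, 39.6% and 88.0% in fetal animals. Inside it fetal animal 3 was above lambs 1 and 2, so the stages overlapped there. The flank of the hypo DMR at chr6:105888240-105888688 was at 62.9%, 57.1% and 54.1% in lambs and 79.5%, 83.3% and 79.8% in fetal animals (adjusted p = 0.011). Its DMR was at 60.2% in lambs and 84.6% in fetal animals, nearly the same levels as its flank, but was not itself called. This DMR lies 33156 bases from the nearest UMR or LMR.

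In a few places the flank was called while the levels inside the listed DMR hardly differed. At chr10:72432335-72432543, a hyper DMR, lambs had 96.4% and fetal animals 98.1% inside, while the 7 CpGs of its flank had 84.8%, 87.5% and 83.3% in lambs and 54.5%, 75.6% and 54.3% in fetal animals. The lambs were above the fetal animals in the flank alone, but the call (adjusted p = 0.033) was lost on leaving out any 1 animal other than fetal animal 2. At chr3:77515994-77516141, a hypo DMR, lambs had 59.4% and fetal animals 57.7% inside, against 65.0% and 79.9% in the flank. That call (adjusted p = 0.029) was lost without lamb 1, lamb 3 or fetal animal 3. The flank difference exceeded that of its own DMR in 9 of 82 hyper and 13 of 95 hypo DMRs with both measured.

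Most of the 270 DMRs lay near a UMR or LMR without touching it. The median distance was 373 bases for hyper and 578.5 bases for hypo DMRs. Within 100 bases there were 30 hyper and 30 hypo DMRs, and within 1000 bases 82 and 85. Over 5000 bases away were 14 hyper and 27 hypo DMRs, with the farthest at 29579 and 66142 bases. None shared a base with a DMV, the long valleys of low methylation that the authors also listed.

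The rule's border was set by single bases. Just inside it, the hyper DMR at chr2:50675262-50675373 lay 10 bases from a fetal UMR, with 69.2% in lambs and 50.3% in fetal animals. The hypo DMR at chr3:213192431-213192450 lay 13 bases from a lamb LMR, with 48.2% in lambs and 69.6% in fetal animals. Just outside it, the hyper DMR at chr20:49317460-49317585 shared 2 bases with a fetal LMR, with 57.2% in lambs and 41.2% in fetal animals. Another hyper DMR, at chr6:67137425-67137523, shared 2 bases with a fetal UMR, with 87.9% in lambs and 54.1% in fetal animals. The hypo DMR at chr19:15210397-15210485 shared 2 bases with a lamb LMR, with 62.8% in lambs and 85.6% in fetal animals. Of these, the DMRs on chr6 and chr19 were called and those on chr2, chr3 and chr20 were not.

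The near UMRs and LMRs were mostly listed at both stages. Of the 82 hyper DMRs with one within 1000 bases, 15 had it in the fetal lists alone, none in the lamb lists alone and 67 in both. Of the 85 hypo DMRs, 10 had it in the lamb lists alone, 1 in the fetal lists alone and 74 in both. That is 18.3% fetal alone for hyper and 11.8% lamb alone for hypo DMRs, against 20.7% fetal alone, 17.0% lamb alone and 62.3% both among all merged UMRs and LMRs. Taking the nearest one at any distance, hyper DMRs had 25 fetal alone and 5 lamb alone, and hypo DMRs 15 of each, so the uneven split of the hypo list held within 1000 bases and not over all distances. These splits were not tested. The 15 fetal-only regions near hyper DMRs were at 58.4% ± 2.24 in lambs and 37.1% ± 2.27 in fetal animals (SD, n = 3 each), and the 10 lamb-only regions near hypo DMRs at 35.2% ± 7.89 in lambs and 58.8% ± 1.08 in fetal animals (SD, n = 3 each). Regions listed at both stages were at 7.74% in lambs and 7.61% in fetal animals near hyper DMRs, and at 7.68% in lambs and 7.78% in fetal animals near hypo DMRs. UMRs made up 50 of the 67 and 58 of the 74. These lists too were made from the same animals.

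For DMRs within 1000 bases of a UMR or LMR, the flank was split by side. On the side towards it, the first 500 bases were at 75.4% in lambs and 67.1% in fetal animals for hyper DMRs, a difference of +8.31 points. On the side away from it they were at 84.5% in lambs and 75.8% in fetal animals, a difference of +8.69 points. Around hypo DMRs the side towards it had 66.0% in lambs and 74.3% in fetal animals (-8.23 points), and the side away 73.8% in lambs and 83.0% in fetal animals (-9.27 points). So the side towards the UMR or LMR was lower at both stages, and both sides differed between stages in the direction of the list.

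DMRs farther from any UMR or LMR had larger differences inside. Median differences were +15.5 points for hyper DMRs at 1 to 100 bases, +15.4 at 101 to 1000, +24.6 at 1001 to 5000 and +23.6 beyond 5000 bases. For hypo DMRs they were -15.0, -16.0, -22.9 and -22.5 points in the same classes. The number called was 5 of 24, 10 of 40, 11 of 20 and 5 of 11 for hyper DMRs, and 4 of 25, 12 of 40, 12 of 25 and 11 of 20 for hypo DMRs. Of all tested DMRs, 56.4% of the hyper and 50.6% of the hypo list were called. The classes within 1000 bases lay below these shares in both lists. The trend concerns the difference that the lists were chosen on and is given without a test.

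The DMRs with the most reads summed over their CpGs also held more CpGs than the median of 4. The hypo DMR at chr1:1663082-1663502 held 38 CpGs, with a sum of 190 reads per animal. Its levels were 58.6%, 57.2% and 53.7% in lambs and 91.4%, 78.8% and 83.8% in fetal animals (56.5% ± 2.54 and 84.7% ± 6.32, SD, n = 3 each), and 36 of 37 usable CpGs were lower in lambs. All lambs were well below all fetal animals. With 24 CpGs, the hypo DMR at chr3:207463331-207463777 was at 66.0%, 58.1% and 68.1% in lambs and 91.6%, 87.6% and 91.8% in fetal animals. The stages were again apart, by 26.3 points between the means, and all 23 usable CpGs were lower in lambs.

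Among hyper DMRs, a pair also had large sums of reads. At chr11:50841265-50841685, with 16 CpGs, lambs had 88.4%, 83.2% and 84.7% and fetal animals 63.4%, 52.2% and 62.4%. Each of the 16 CpGs was higher in lambs. At chr16:67376207-67376554, with 19 CpGs and 25 bases from a fetal LMR, lambs had 81.3%, 82.5% and 82.8% and fetal animals 55.2%, 63.3% and 58.8%. The 3 lambs lay close together there, all above the fetal animals. The hyper DMR at chr12:78264902-78265008 had 90.6% ± 2.44 in lambs and 60.7% ± 13.8 in fetal animals (SD, n = 3 each). The remaining hyper DMR of high read number, at chr20:49185436-49185677, overlapped between stages, with 73.9%, 74.0% and 58.3% in lambs and 59.6%, 60.5% and 49.5% in fetal animals, and was not called (adjusted p = 0.094). At chr14:5115827-5116415, a hypo DMR had 50.9% ± 5.96 in lambs and 70.5% ± 10.3 in fetal animals (SD, n = 3 each), a call lost without lamb 2 (adjusted p = 0.058).

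The largest differences without overlap between stages came from fewer reads. At chr7:44151352-44151704, a hypo DMR had 54.8%, 64.3% and 32.0% in lambs and 89.5%, 100% and 93.9% in fetal animals over 5 CpGs, at 34.3 reads per animal. Fetal animals were close to full methylation and lambs near 50% (-44.1 points), and the DMR lies 11958 bases from a lamb LMR. The hyper DMR at chr1:63077764-63078067 had 66.7%, 57.1% and 78.6% in lambs and 8.00%, 7.69% and 55.0% in fetal animals over 4 CpGs, at 22.3 reads per animal. Fetal animal 3 stood far above the other fetal animals. Its difference of +43.9 points was called (adjusted p = 0.016), but not without lamb 3 or fetal animal 1 (largest adjusted p = 0.086). At chr11:55809943-55810060, a hyper DMR, lambs had 79.2%, 60.0% and 83.3% and fetal animals 45.5%, 23.1% and 23.1%. The 8 largest differences without overlap ran from +31.8 to +43.9 points in the hyper list and from -44.1 to -33.5 points in the hypo list. All 16 were called, but choosing them by size and lack of overlap made calls likely. Of all those tested outside UMRs and LMRs, 31 of 95 hyper and 39 of 110 hypo DMRs were called.

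A hypo DMR at chr23:56070366-56070972 was among the largest differences and among the largest sums of reads. Lambs had 55.6%, 39.8% and 42.9% and fetal animals 76.6%, 84.4% and 77.6% over 16 CpGs at 110 reads per animal. All lambs were below all fetal animals. The hypo DMR at chr8:52551003-52551316 was less even among lambs, which had 90.9%, 65% and 30%, against 94.4%, 93.5% and 100% in fetal animals. Lamb 1 lay close to the fetal animals, and the call (-34.0 points) was lost without lamb 2, lamb 3 or fetal animal 3. Of the 23 DMRs chosen for size or read number, 22 were called, and 16 of these stayed called without each animal in turn. Such a choice favours calls, so these counts do not describe the DMRs as a whole.

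**Figure D4:**
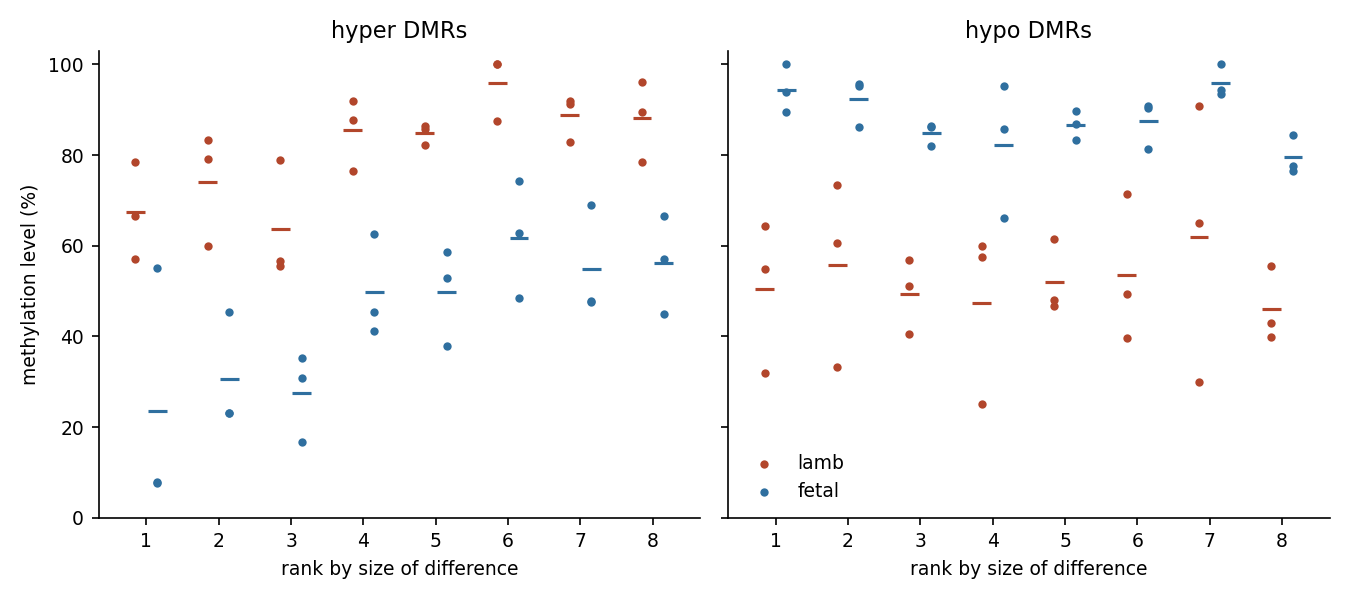
Level (% methylated) in each lamb and each fetal animal for the 8 hyper (left) and 8 hypo DMRs (right) with the largest difference without overlap between stages; points are animals, bars are means, ranked from the largest difference. Fetal levels of the hypo DMRs lie mostly above 80%, and the fetal animals of the first hyper DMR are spread from 7.69% to 55.0%.

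Over windows fixed without the lists, few of these places stood out. The autosomes were cut into 1 kb windows, of which 1921772 could be tested: 92 were called higher in lambs (0.00479%) and 66 lower in lambs (0.00343%). Of the 144 windows that hold part of a hyper DMR, 3 were called higher, and of the 161 at hypo DMRs, 4 were called lower. The median window at a hyper DMR differed by +11.6 points and that at a hypo DMR by -11.98 points, against +0.44 points over all windows. Unadjusted p-values under 0.05 were found in 52.1% and 57.1% of the windows at hyper and hypo DMRs, against 6.21% of all. These windows contain the listed CpGs, so they too describe the lists.

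The 7 called windows held 6 of the DMRs named above and 1 more. The window chr16:67376001-67377000 had 83.9%, 83.0% and 82.5% in lambs and 60.5%, 59.0% and 57.8% in fetal animals over 37 CpGs. Its difference of +24.0 points was as large as that of the DMR inside it. The window chr1:1663001-1664000 had 66.0%, 63.0% and 67.8% in lambs and 91.4%, 84.6% and 87.5% in fetal animals over 69 CpGs. There the stages were 22.3 points apart. The window chr24:931001-932000, around the hypo DMR at chr24:931347-931420, had 68.0% ± 9.52 in lambs and 87.8% ± 1.76 in fetal animals (SD, n = 3 each). That call (adjusted p = 0.025) was lost on leaving out any 1 animal other than lamb 1. Of the 7 windows, 4 stayed called without each animal in turn, but limma on log2 ratios and a minimum of 5 reads per CpG each called 0 of them. The window among these 4 that lies on chromosome 23 from 56070001 was also lost under the replicate block (adjusted p = 0.10). Those on chromosome 3 from 58850001 and on chromosome 11 from 50841001 did not stay called without each animal: the first was lost without lamb 1 or fetal animal 1 (largest adjusted p = 0.061) and the second without any 1 lamb or fetal animal 2 (largest adjusted p = 0.22).

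The 270 DMRs were found on all 26 autosomes, from 36 on chromosome 3 to 2 on chromosome 25. Chromosome 20 held 22, 12 hyper and 10 hypo, which is 8.15% of them on 2.60% of the autosomal CpGs. Per 1000000 CpGs that is 33.9, against 19.2 on chromosome 22, the next highest, and 3.79 on chromosome 4, the lowest. DMRs at a UMR or LMR were also frequent on chromosome 20, with 6.38% of them there. Of the 22, 11 lay within 5 Mb of the last CpG of chromosome 20, where 20.4% of its CpGs lie. Over chromosomes 4 to 26 the same end held 23 of 87 hyper (26.4%) and 20 of 101 hypo DMRs (19.8%), against 25.2% and 24.8% of the DMRs at a UMR or LMR and 14.2% of the CpGs of these chromosomes.

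**Figure D5:**
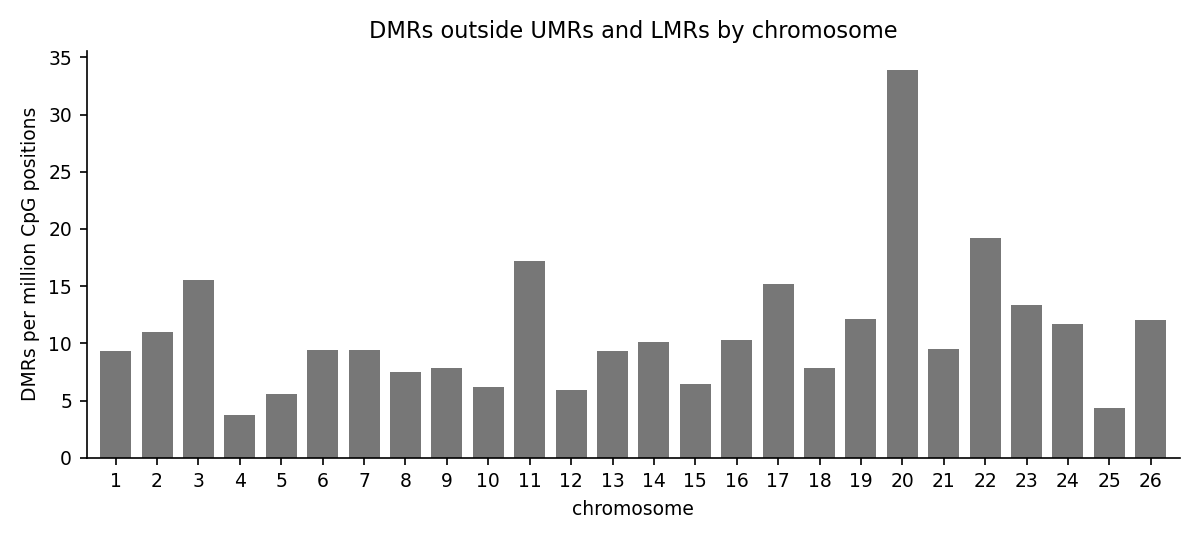
Number of DMRs outside UMRs and LMRs per 1000000 CpG positions (vertical axis) on each of the 26 autosomes (horizontal axis), both lists together. Chromosome 20 reaches 33.9 and no other chromosome exceeds 19.2.

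Another DMR lay within 10 kb of 13 hyper (10.3%) and 20 hypo DMRs (13.9%), against 8.5% and 7.95% of the DMRs at a UMR or LMR, and it came from the same list in 9 and 17 of these. Pairs of DMRs outside UMRs and LMRs within 10 kb numbered 8, each within 1 list, and there was no group of 3. The widest pair, 2 hyper DMRs, spanned 3466 bases on chromosome 20 from 50332345 to 50335810. A pair of hypo DMRs on chromosome 21 from 34398750 to 34399751 includes the one at chr21:34399441-34399751, which had 48.0%, 61.5% and 46.7% in lambs and 89.7%, 83.3% and 86.8% in fetal animals.

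Not every listed region ran with its list. The 5 hyper DMRs that were not higher in lambs had differences from -15.3 to -0.82 points, and the 6 hypo DMRs that were not lower had +0.55 to +9.87 points. None of these 11 was called. The hyper DMR at chr2:209936426-209936581 was the farthest out, with 40.1% ± 12.97 in lambs and 55.4% ± 14.3 in fetal animals (SD, n = 3 each) over 3 CpGs at 18.5 reads per animal.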

How the data were processed

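The authors deposited 1 table of raw counts per CpG, methylated and covering reads of each animal, and BED lists of positions of DMRs, UMRs, LMRs and DMVs; columns were matched to animals by the sample descriptions. Libraries were sequenced on 1 lane per animal with paired 100-base reads, per the labels' protocols, and mapped to Oar_v3.1, per the series text. BWA, Picard, Oar_v3.1 and hg19 appear in the submitters' processing notes without roles. The methylation caller and the calling of the lists are not given in the sources at hand. BED starts were raised by 1, so coordinates are Oar_v3.1, counted from 1. No gene annotation or sequence of that build was used here, so regions carry no gene names.

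A CpG was usable with at least 1 read in each of the 6 animals, because a minimum of 5 left too few of these regions. Regions needed 3 usable CpGs and 10 reads per animal. The test was a logistic quasi-binomial model, lamb against fetal and two-sided; its dispersion was moderated as in limma's squeezeVar, was kept at 1 or above, and p-values were adjusted by Benjamini-Hochberg over all DMRs, all flanks or all windows. A call needed an adjusted p under 0.05 and 10 points between the means. The model was tested on simulated data. Single pooled levels were compared by the exact permutation test over animals. Reads are not marked by molecule, so read numbers limit counting precision alone. Read numbers of a region are sums over its CpGs and can count a read more than once.

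Named regions are, per list, the 8 largest differences without overlap, the 4 with most reads per animal, and 2 on each side of the border of the rule; called flanks and windows, DMR pairs and DMRs against their list were picked after their values were seen. The regions, rules and tests were chosen with earlier results of these data known. Software was limma 3.58.1 and edgeR 4.0.16 under R 4.3.3, and pandas 2.3.3, scipy 1.17.1 and numpy 2.4.6 under Python 3.11.15.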

Additional observations from a re-analysis of the deposited data

How the results depend on the processing

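The number of called DMRs outside UMRs and LMRs was 70 of 205 tested, of called flanks 16 of 230 and of called windows 7 of 305. With a minimum of 5 reads per CpG these fell to 19 of 39, 3 and 0. Limma, run on log2 ratios of both kinds of reads after adding 1, gave 82 DMRs, 6 flanks and 0 windows, and edgeR gave 80 DMRs and 14 flanks. A flank of 500 bases gave 35 called flanks and one of 2000 bases gave 5. Restricted to regions over 1000 bases from any UMR or LMR, 39 of 76 tested DMRs were called. That is a lower count from fewer regions, but a larger share than 70 of 205.

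Leaving out 1 animal at a time gave 45 to 60 called DMRs, 8 to 18 called flanks and 5 to 9 called windows. The lowest counts came without lamb 2 for DMRs (45) and without lamb 2 or fetal animal 3 for flanks (8 each), and without lamb 1 there were 10 flanks. The pooled flank differences kept their direction under all 13 alternatives, from +1.83 to +10.1 points around hyper and from -8.90 to -1.82 around hypo DMRs; so did the gap to DMRs at a UMR or LMR, from +0.61 to +3.76 and from -3.95 to -1.35 points, with exact p of 0.1 to 0.3. Causes were not tested.

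Lambs and fetal animals carry the same replicate numbers, which pair nothing in the labels. Deviations of same-numbered animals from their stage means correlated over windows with r between 0.0034 and 0.011. Animals with different numbers had lower values there, between -0.0071 and 0.0018. Over DMRs and over flanks the same-numbered values lay within the range of the others. With values this small over windows, the numbers were not taken as pairs. The replicate block gave 80 called DMRs, 18 flanks and 4 windows.

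Depth limits the single regions: medians were 33.3 and 31.3 reads per animal, and 31 hyper and 34 hypo DMRs could not be tested.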
